A study of Homo sapiens
Mus musculus with 3 samples.

Results

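Expression of 10 mouse DNA replication genes was measured by single-cell RNA-seq in 3 ICELL8 libraries. The genes were Mcm2 (ENSMUSG00000002870), Mcm3 (ENSMUSG00000041859), Mcm4 (ENSMUSG00000022673), Mcm5 (ENSMUSG00000005410), Mcm6 (ENSMUSG00000026355), Mcm7 (ENSMUSG00000029730), Pcna (ENSMUSG00000027342), Tyms (ENSMUSG00000025747), Rrm1 (ENSMUSG00000030978) and Rrm2 (ENSMUSG00000020649). They were a list taken by identifier, with no threshold on a measured value, from the 27998 mouse genes among the 60736 genes of the count tables, and all 10 had reads in every library. The ICELL8 cx distributes single cells over a chip of very small wells and tags the messenger RNA ends of each well with a known barcode. Every library was made from cells of the same 4 lymphocyte lines, pooled in equal parts. EL4 (T cells) and IVA12 (B cells) are the mouse lines, and Jurkat and TALL-104 are T-cell lines of human origin. The group 3'DE, the official kit, held 2 libraries, and the group 3'DE-UMI, an alternate protocol in which barcoding primers are digested before the cDNA is amplified to allow counting of molecules by unique molecular identifiers (UMIs), held 1 library. The 3'DE-UMI library shared its cell mixture with 3'DE replicate 2, and 3'DE replicate 1 came from a separate mixture.

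A cell must copy its genome once before it divides, and it makes most of the proteins for this as it enters S phase. The proteins of Mcm2 to Mcm7 assemble into the ring that loads onto replication origins and unwinds DNA as the core of the replicative helicase. Pcna encodes the sliding clamp that holds DNA polymerases on the template. Tyms encodes thymidylate synthase, which makes the thymidine nucleotide of DNA, and Rrm1 and Rrm2 encode the large and the small subunit of ribonucleotide reductase, which turns ribonucleotides into the building blocks of DNA. In cultured lymphoid lines, which divide rapidly, these genes are known to be active in many cells at any time. Rrm2 is also known as the reductase subunit whose amount changes most over the cell cycle.

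The read tables held 1704, 1518 and 1560 well barcodes for 3'DE replicate 1, 3'DE replicate 2 and the 3'DE-UMI library, against 1684, 1498 and 1465 wells stated in the labels. A well was kept with at least 1000 reads and 200 genes, and was set aside as mixed where the other species held at least 10% of the reads, which left 922, 773 and 700 mouse wells. Clustering of the mouse wells without the 10 genes gave 2 groups. No table used here pairs mouse identifiers with symbols, so neither group could be tied to EL4 or IVA12, and they are called cluster 1 and cluster 2. Cluster 1 held 473, 498 and 469 wells and cluster 2 held 449, 275 and 231 wells in the 3 libraries, with median depths between 20310 and 36855 mouse reads per well. Clusters made on either of 2 sets of the genes differed for 7 wells of 2395. Of the barcodes, 529, 539 and 469 were shared by pairs of libraries (3'DE replicate 1 with 3'DE replicate 2, 3'DE replicate 1 with the 3'DE-UMI library, and 3'DE replicate 2 with the 3'DE-UMI library), and 189 by all 3. Wells with a shared barcode were of the same species in 75.4%, 75.5% and 72.3% of cases, where the species shares alone would give 54.4%, 52.1% and 52.6%. Among shared barcodes with mouse wells in both libraries, the cluster was the same in 83.7%, 78.8% and 87.5%, where the cluster shares alone would give 50.3%, 51.7% and 55.7%. The source of the shared identity was not tested. Counts are therefore given below also for wells whose barcode occurred in 1 library only.

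The mouse clusters differed in part of these genes. Cluster 1 had more Rrm2, Pcna, Mcm7 and Mcm5 than cluster 2, so that 4 of the 10 genes were higher in cluster 1 and none was lower, with Rrm2 at 3.31-fold and Pcna at 2.99-fold in the fit. All 10 passed the filter on low counts in every comparison, and the other 6 did not pass the test (edgeR quasi-likelihood test on reads summed per library and cluster, 6 sums, library as a block, Benjamini-Hochberg adjusted p under 0.05). The clusters stand apart in much of the transcriptome, since 4692 of 12097 mouse genes tested passed, or 38.8%, and 19.7% passed with the higher value in cluster 1. The 40% of the replication genes that passed, all higher in cluster 1, is near the share over all genes in either direction and above that in this direction. The median log2 difference of the 10 genes was 0.52, and that of all genes tested was −0.04.

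**Figure D1:**
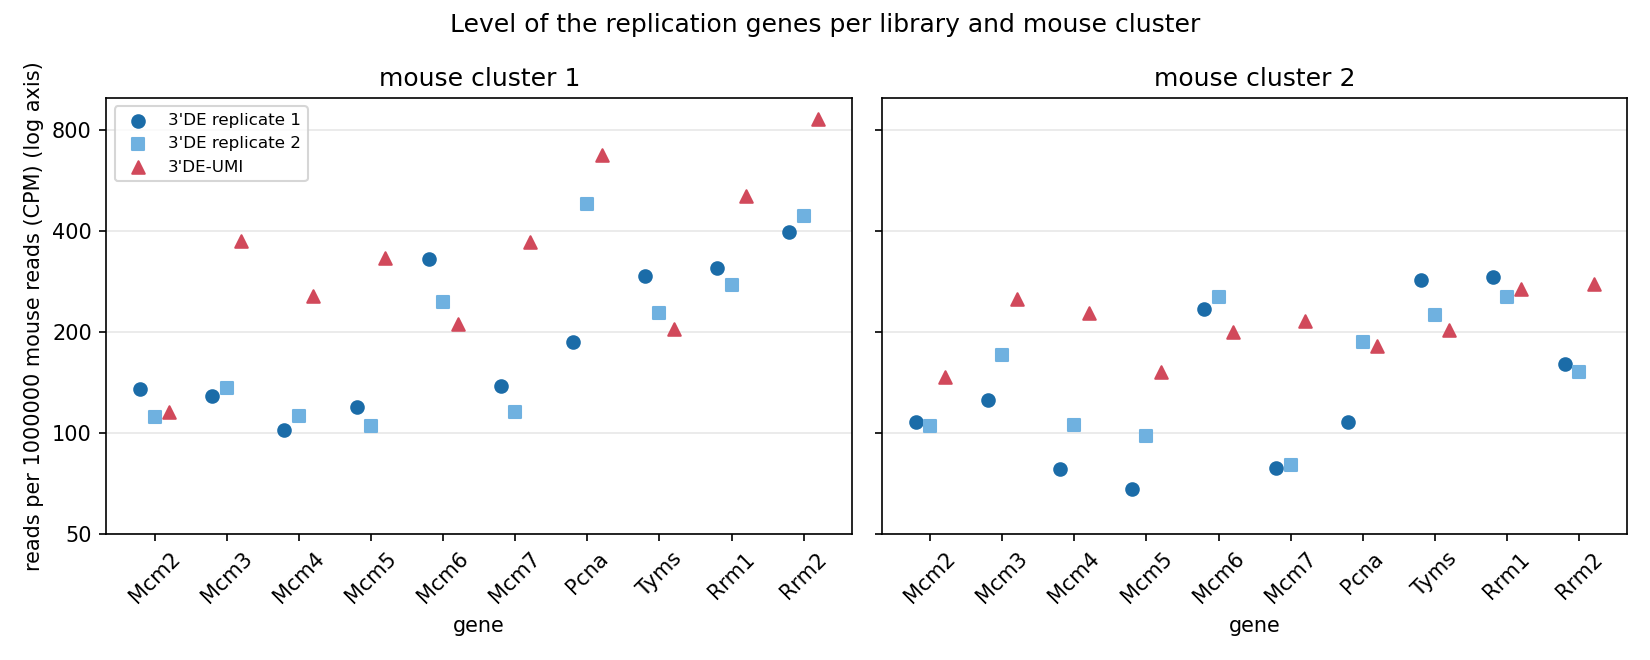
Reads per 1000000 mouse reads (log axis) of each of the 10 genes, summed over the wells of mouse cluster 1 (left) and mouse cluster 2 (right); each point is 1 library. Pcna and Rrm2 lie higher in cluster 1 than in cluster 2 in every library, and the 3'DE-UMI points of Mcm3, Mcm4, Mcm5 and Mcm7 lie above both 3'DE points.

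Among the nucleotide-synthesis genes, Rrm2 differed most. In cluster 1 it had 399 reads per 1000000 mouse reads (CPM) in 3'DE replicate 1, 445 in 3'DE replicate 2 and 864 in the 3'DE-UMI library. In cluster 2 the same libraries gave 160, 152 and 278. The clusters did not overlap, and every library showed the difference, by 2.49-, 2.92- and 3.11-fold before scaling between sums, and by 2.37-, 1.86- and 2.95-fold with every well thinned to 5000 reads. The fitted log2 difference was 1.73 ± 0.18 (SE; adjusted p = 0.000131, edgeR). With wells of unshared barcodes only it was 1.71 ± 0.22, and with thinned wells 1.41 ± 0.19.

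Rrm1, whose protein pairs with that of Rrm2, was nearer between the clusters. Cluster 1 had 312, 277 and 509 CPM and cluster 2 had 292, 255 and 269, so that only the 3'DE-UMI library set them well apart. The log2 difference of 0.61 ± 0.22 did not pass (adjusted p = 0.0581). Without 3'DE replicate 1 it did, at 0.80 (adjusted p = 0.0440), and it also passed in DESeq2 (adjusted p = 0.0343), without a filter on low counts (adjusted p = 0.0169) and with UMI counts for the 3'DE-UMI library (adjusted p = 0.0222). Without the 3'DE-UMI library it was 0.32 (adjusted p = 0.239). Tyms showed the smallest difference of the 10, with 295, 228 and 205 CPM in cluster 1 against 286, 225 and 203 in cluster 2. Its log2 difference was 0.25 ± 0.17 (adjusted p = 0.275, edgeR), and 0.02 ± 0.16 with scaling by total reads alone. That scaling lowered the differences of all 10 genes by a like amount.

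Pcna, the clamp gene, was the second to stand apart. Cluster 1 had 187, 482 and 676 CPM and cluster 2 had 108, 187 and 182. The lowest value of cluster 1, in 3'DE replicate 1, equalled the highest of cluster 2 to the nearest whole CPM, but within each library cluster 1 was higher, by 1.73-, 2.58- and 3.72-fold. The log2 difference was 1.58 ± 0.25 (adjusted p = 0.00115), and Pcna passed also with unshared barcodes only (adjusted p = 0.00245). Pcna was also the gene of the 10 on which the 2 libraries of the same protocol disagreed most. In cluster 1, 3'DE replicate 2 had 2.58 times the level of 3'DE replicate 1, a larger gap than for 98.3% of the 2928 genes with at least 50 CPM in either library, and in cluster 2 it had 1.73 times the level, a larger gap than for 84.1% of 3269 genes. These libraries came from different cell mixtures, and the part of the mixture in the Pcna level was not tested.

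The helicase genes divided into a pair that passed and 4 that did not. Mcm7 had 138, 116 and 372 CPM in cluster 1 and 78.9, 80.6 and 216 in cluster 2, higher in cluster 1 in each library by 1.44- to 1.75-fold. Its log2 difference was 0.93 ± 0.18 (adjusted p = 0.00358). Mcm5 had 119, 105 and 334 CPM in cluster 1 and 68.4, 98.1 and 152 in cluster 2, with a log2 difference of 0.90 ± 0.23 (adjusted p = 0.0140). In 3'DE replicate 2 the Mcm5 levels were nearly equal, with a ratio of 1.07. With unshared barcodes only, Mcm5 no longer passed (0.73 ± 0.28, adjusted p = 0.0771), and the count of genes called fell from 4 to 3. Without the library as a block, neither Mcm5 (1.03 ± 0.46) nor Mcm7 (0.97 ± 0.51) passed, with larger differences and larger errors, and Rrm2 and Pcna still did.

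The remaining subunits did not pass. Mcm4 had 102, 112 and 256 CPM in cluster 1 and 78.3, 106 and 228 in cluster 2 (log2 difference 0.43 ± 0.18, adjusted p = 0.0831), and passed when UMI counts took the place of reads in the 3'DE-UMI library (0.54 ± 0.19, adjusted p = 0.0282). Mcm6 had 331, 246 and 212 in cluster 1 and 234, 255 and 201 in cluster 2 (0.40 ± 0.18, adjusted p = 0.106), and the order of the clusters turned around in 3'DE replicate 2. That also held for Mcm3, with 130, 136 and 373 CPM against 126, 172 and 251 (0.32 ± 0.22, adjusted p = 0.277). Mcm2 had 136, 111 and 116 in cluster 1 and 108, 105 and 147 in cluster 2, where the 3'DE-UMI library was the one to turn around (0.26 ± 0.19, adjusted p = 0.331). For Mcm2 the sign depended on how wells were weighted, since thinning each well to 5000 reads gave −0.05 ± 0.22. Over the 10 genes and 3 libraries, 27 of 30 pairs of levels were higher in cluster 1, and 7 genes were higher in all 3 libraries. With every well thinned to 5000 reads, these were 23 pairs and 5 genes (Mcm5, Mcm7, Pcna, Tyms and Rrm2). The same counts are not given here for all mouse genes, so they do not show whether the 10 genes are unusual. The scaling factors moved the fitted differences. With scaling by total reads alone the median of all genes went from −0.04 to −0.26, and the same 4 replication genes passed. Of 4754 genes then called, 1872 were higher in cluster 1, in place of 2378 of 4692.

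**Figure D2:**
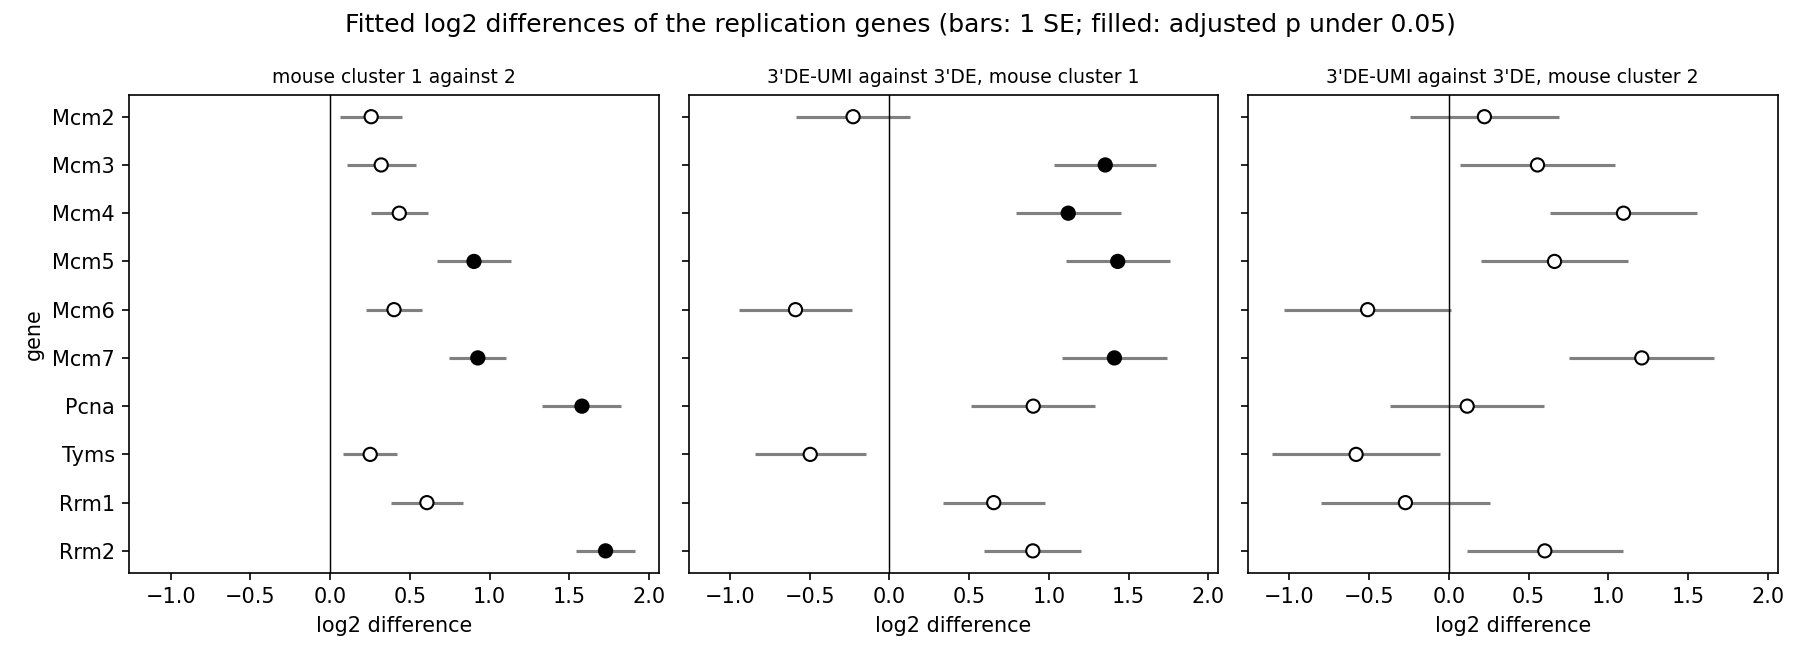
Fitted log2 differences of the 10 genes with 1 SE, for cluster 1 against cluster 2 (left) and for the 3'DE-UMI library against the 3'DE libraries in cluster 1 (middle) and cluster 2 (right); filled points passed an adjusted p of 0.05 in edgeR. Rrm2, Pcna, Mcm7 and Mcm5 are filled in the left panel, Mcm3, Mcm4, Mcm5 and Mcm7 in the middle panel and none in the right panel.

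The official and the alternate protocol were compared next, within each cluster. In cluster 1, Mcm3, Mcm4, Mcm5 and Mcm7 rose under 3'DE-UMI relative to the 3'DE libraries, by 2.17- to 2.7-fold. Mcm6 (log2 difference −0.59), Tyms (−0.50) and Mcm2 (−0.23) had lower fitted values, and no lower value passed. Over all mouse genes 1524 of 11787 passed, or 12.9%, and 4.85% passed with the higher value under 3'DE-UMI. The 4 genes are therefore 40% of the replication genes against 4.85% of all genes in that direction. The fit had 3 sums and 1 residual degree of freedom, so the spread of the single 3'DE-UMI library had to be taken from the pair of 3'DE libraries. The protocol and the single library that represents it cannot be told apart. With scaling by total reads alone, 716 of 1504 called genes had the higher value under 3'DE-UMI, in place of 572 of 1524, and Rrm2 passed as well.

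Mcm5 and Mcm7 had the highest fitted values, within their errors of each other. Mcm5 had 119 and 105 CPM in the 3'DE libraries and 334 in the 3'DE-UMI library, a log2 difference of 1.43 ± 0.33 (adjusted p = 0.00751). Mcm7 had 138 and 116 against 372 (1.41 ± 0.33, adjusted p = 0.00815), and Mcm3 had 130 and 136 against 373 (1.35 ± 0.32, adjusted p = 0.00922). For all 3 subunits the gap to the 3'DE-UMI library was larger than that between the 3'DE libraries, which differed by 0.07 to 0.25 on the log2 scale. Mcm4 had 102 and 112 against 256 (1.12 ± 0.33, adjusted p = 0.0303). It lost its call when wells were thinned to 5000 reads (0.94 ± 0.42, adjusted p = 0.122) and with unshared barcodes only (0.89 ± 0.35, adjusted p = 0.113), where 3 of the 10 genes passed. When the UMI counts of the 3'DE-UMI library took the place of its reads, only Mcm5 and Mcm7 passed.

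The 2 other helicase subunits did not pass and had negative differences. Mcm6 had 331 and 246 CPM in the 3'DE libraries of cluster 1 and 212 in the 3'DE-UMI library, below both (log2 difference −0.59 ± 0.35, adjusted p = 0.282). Mcm2 had 136 and 111 against 116, between them (−0.23 ± 0.36, adjusted p = 0.716). The make-up of the helicase reads stood apart between the libraries, a difference that was described and not tested. Mcm6 held 34.7% and 29.8% of the summed Mcm2 to Mcm7 reads of cluster 1 in the 3'DE libraries and 12.8% in the 3'DE-UMI library, and Mcm2 held 14.2% and 13.5% against 6.95%. Mcm3 went from 13.5% and 16.5% to 22.5%, Mcm5 from 12.5% and 12.7% to 20.1%, and Mcm7 from 14.4% and 14.0% to 22.4%. In cluster 2, Mcm6 held 33.8% and 31.3% in the 3'DE libraries and 16.8% in the 3'DE-UMI library. Mcm7 went from 11.4% and 9.86% to 18.1% there, and Mcm4 from 11.3% and 13% to 19.1%. The shares of Mcm3, Mcm5 and Mcm2 in cluster 2 stayed near the 3'DE values. Mcm3 held 18.1% and 21.01% against 21.05%, Mcm5 9.86% and 12.01% against 12.7%, and Mcm2 15.5% and 12.8% against 12.3%. Reads were counted at the messenger RNA end and not divided by transcript length, so these shares compare libraries and not subunits.

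**Figure D3:**
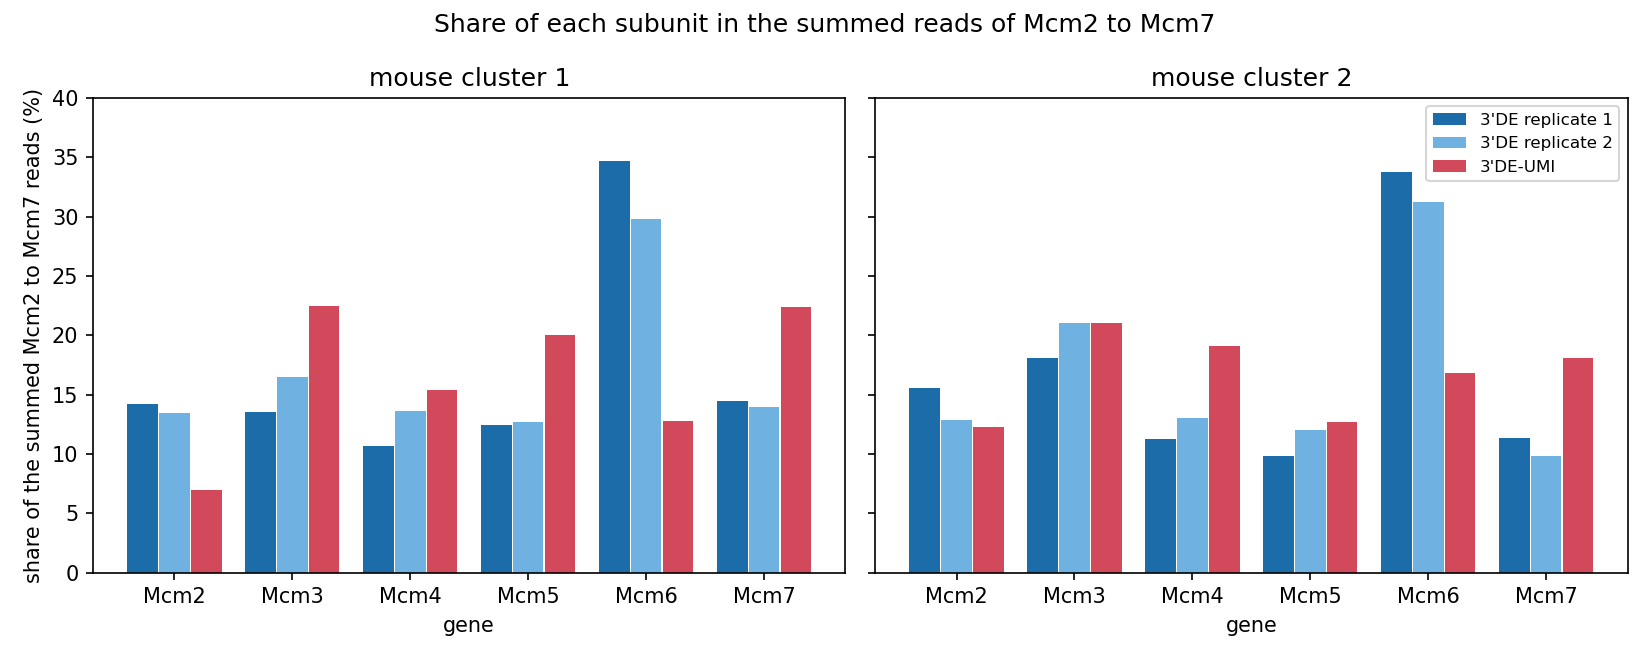
Share (%) of each subunit in the summed reads of Mcm2 to Mcm7 in mouse cluster 1 (left) and mouse cluster 2 (right); bars are libraries. The bars of Mcm6 stand at 34.7% and 29.8% in the 3'DE libraries of cluster 1 and at 12.8% under 3'DE-UMI.

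Beyond the helicase, no gene passed between the protocols in cluster 1. Rrm2 had 399 and 445 CPM in the 3'DE libraries and 864 under 3'DE-UMI (log2 difference 0.90 ± 0.30, adjusted p = 0.0573). Rrm1 had 312 and 277 against 509 (0.65 ± 0.32, adjusted p = 0.186), and both stood above the pair of 3'DE libraries. Tyms had 295 and 228 against 205, below both (−0.50 ± 0.35, adjusted p = 0.363). Pcna had 187 and 482 against 676 (0.90 ± 0.39, adjusted p = 0.135). The Pcna difference rested on which 3'DE library it was set against: it was 1.63 without 3'DE replicate 2 and 0.41 without 3'DE replicate 1, the library from the other mixture. When every sum held the same number of wells, Pcna (adjusted p = 0.0462) and Rrm2 (adjusted p = 0.00621) passed too.

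In cluster 2, none of the 10 genes passed between the protocols in edgeR or in DESeq2, and 2.41% of all genes did (281 of 11636). The largest fitted differences of the 10 were those of Mcm7 and Mcm4. Mcm7 had 78.9 and 80.6 CPM in the 3'DE libraries and 216 under 3'DE-UMI, for a log2 difference of 1.21 ± 0.46 (adjusted p = 0.136), and Mcm4 had 78.3 and 106 against 228 (1.10 ± 0.46, adjusted p = 0.204). With scaling by total reads alone Mcm7 passed (1.44 ± 0.43, adjusted p = 0.0387). For the other genes the differences lay between −0.58 for Tyms and 0.66 for Mcm5, with standard errors of 0.46 to 0.53. The errors were wider than in cluster 1, where they ran from 0.30 to 0.39.

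Whether the protocols differed more in one cluster than in the other was tested by the interaction term over the 6 sums. None of the 10 genes passed in edgeR or DESeq2, and 2.17% of all genes did in edgeR (287 of 13252, of which 113 were positive; 11 of 40 with scaling by total reads alone). The 4 genes with the largest interaction values all had the larger gain of the 3'DE-UMI library in cluster 1. They were Rrm1 (0.92 ± 0.37, adjusted p = 0.20), Pcna (0.90 ± 0.37, adjusted p = 0.217), Mcm3 (0.80 ± 0.38, adjusted p = 0.336) and Mcm5 (0.78 ± 0.39, adjusted p = 0.383). The calls of cluster 1 are thus not shown to be absent from cluster 2. With unshared barcodes only, none of the 10 genes passed in the interaction or between the protocols in cluster 2.

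The share of wells with a read was set beside these levels, because a summed level does not show how many wells hold a read. A share falls with fewer expressing wells and also with less RNA per well, so it does not tell these apart. In cluster 1 with each well thinned to 5000 mouse reads, Rrm2 was seen in 72.9% of wells of 3'DE replicate 1 (95% exact interval 68.6 to 76.9, n = 458), 64.2% of 3'DE replicate 2 (59.7 to 68.5, n = 478) and 53.8% of the 3'DE-UMI library (49.1 to 58.5, n = 455). In cluster 2 it was seen in 42.1%, 42.3% and 29.8% (n = 428, 234 and 225). The intervals of the clusters did not overlap in any library. Wells below 5000 reads, 15, 20 and 14 in cluster 1 and 21, 41 and 6 in cluster 2, were left out, and the unthinned shares of Rrm2 were 89.9%, 78.9% and 60.6% in cluster 1 and 67.0%, 63.3% and 39% in cluster 2. Intervals cover counting error over the wells of 1 library only, with wells taken as independent. They leave out the variation between libraries.

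Rrm2 of cluster 1 had its highest summed level by reads and its lowest share of wells under 3'DE-UMI, and so had Rrm2 of cluster 2. The difference in level passed in neither cluster. With UMI counts of the 3'DE-UMI library set against reads of the 3'DE libraries, it was 0.31 and 0.09 on the log2 scale. The unit then differs between the protocols. For Tyms in cluster 1, the thinned share went from 57.2% and 42.1% in the 3'DE libraries to 24.2% in the 3'DE-UMI library, for Mcm6 from 69.9% and 51.9% to 27.5%, and for Mcm2 from 37.8% and 21.5% to 14.5%. For Tyms and Mcm6 the interval of the 3'DE-UMI library lay below those of both 3'DE libraries, and for Mcm2 it met that of 3'DE replicate 2. For Tyms, Mcm6 and Mcm2 the intervals of the 3'DE libraries also lay apart from each other, for Mcm6 at 65.4 to 74.0 and 47.3 to 56.4. Separate intervals thus do not show a difference between the protocols. Mcm3 (36.2% and 34.1% against 43.7%), Mcm5 (38.0% and 32.8% against 43.5%) and Mcm7 (41.0% and 28.7% against 45.5%) were in somewhat more wells there, with intervals that overlapped those of 3'DE replicate 1. Mcm4 was in 30.8%, 26.6% and 27.7% of cluster 1 wells, with overlapping intervals in all 3 libraries, and Rrm1 in 66.6%, 47.3% and 53.6%. In cluster 2 the 10 genes ranged from 24.3% to 59.3% of wells in 3'DE replicate 1, from 21.8% to 49.6% in 3'DE replicate 2 and from 16.9% to 40.9% under 3'DE-UMI. The median share over the genes, averaged over libraries, was 42.6% ± 4.05 in cluster 1 and 34.6% ± 4.55 in cluster 2 (SD, n = 3), and 42.6% and 34.2% with unshared barcodes only. The 3'DE-UMI library also had fewer genes per well in all, with a median of 1252 mouse genes in cluster 1 against 2973 and 2608.5, and the part of this in the shares was not tested.

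**Figure D4:**
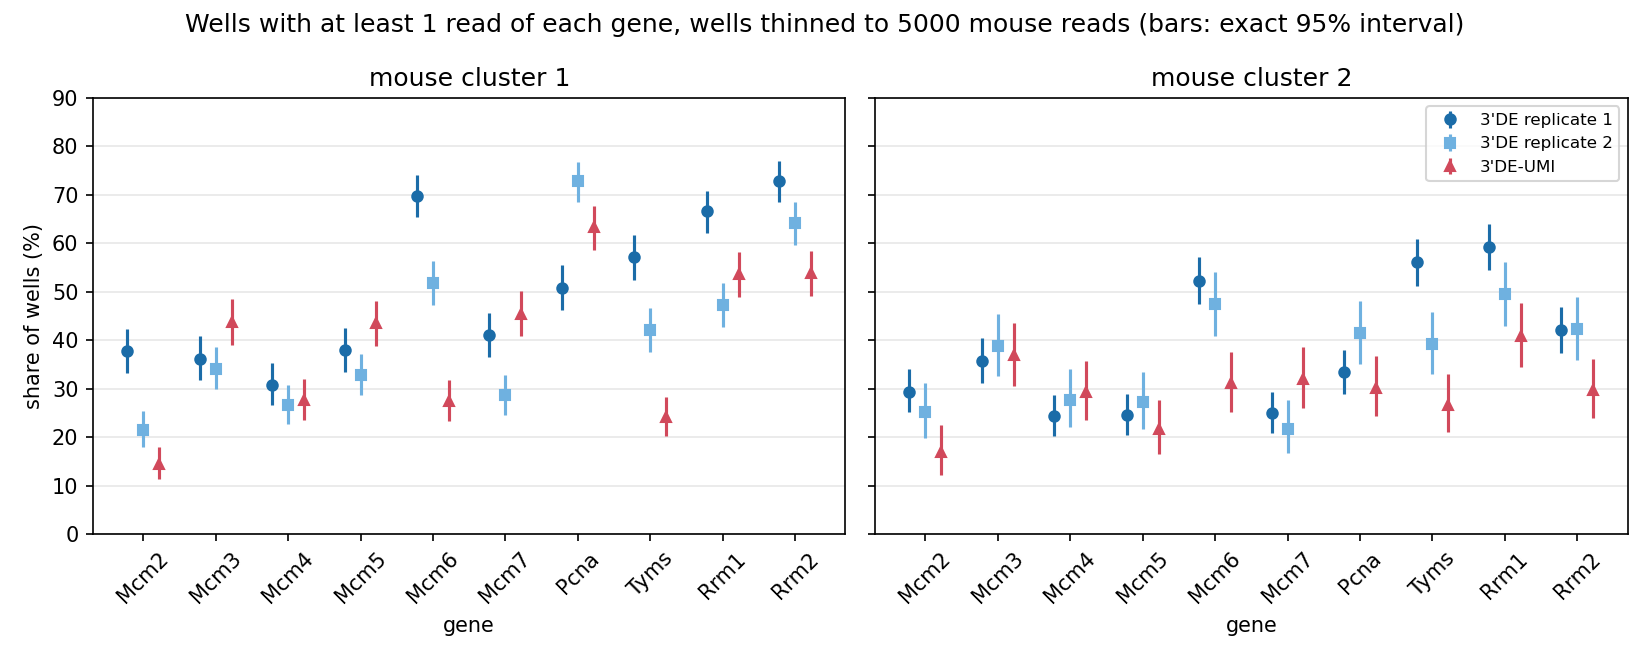
Share of wells (%) with at least 1 read of each gene after thinning every well to 5000 mouse reads, with exact 95% intervals, in mouse cluster 1 (left) and mouse cluster 2 (right); points are libraries. Tyms, Mcm6 and Mcm2 of cluster 1 are lowest in the 3'DE-UMI library, at 24.2%, 27.5% and 14.5%.

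In cluster 1, Pcna was the only gene of the 10 found in more wells of 3'DE replicate 2 than of 3'DE replicate 1. Its thinned share in cluster 1 was 50.9% in 3'DE replicate 1, 72.8% in 3'DE replicate 2 and 63.3% in the 3'DE-UMI library. In cluster 2 Mcm3, Mcm4, Mcm5 and Rrm2 were in more wells of 3'DE replicate 2 as well. Pcna of cluster 2 was in 33.4%, 41.5% and 30.2% of wells. As background, reads of the 10 mouse genes were also found in human wells, in 2.44% to 6.57% of those of 3'DE replicate 1, 2.69% to 25.6% of 3'DE replicate 2 and 0.539% to 3.41% of the 3'DE-UMI library, where the median well held 36, 1010 and 206 mouse reads. The unthinned shares in mouse wells were at least 41.6%, 34.9% and 21.7% in the same libraries. The highest shares in human wells were those of Mcm6 (25.6%), Rrm2 (23.1%) and Pcna (21.5%) in 3'DE replicate 2.

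Single wells differed widely in how much of the set they showed. The 10 genes together had a median of 10 reads per 5000 in cluster 1 and 7 in cluster 2 of 3'DE replicate 1, 10 and 8 in 3'DE replicate 2, and 17 and 9 under 3'DE-UMI. The spread within a cluster was largest in the 3'DE-UMI library, where the quartiles of cluster 1 were at 8 and 27 reads, against 6 and 14 in 3'DE replicate 1 and 6 and 15 in 3'DE replicate 2. Wells with none of the 10 genes made up 0.437%, 1.26% and 5.27% of cluster 1 and 2.57%, 3.42% and 12% of cluster 2. Both the spread and the wells with none are by reads and not by molecules. Under 3'DE-UMI, mouse reads outnumbered mouse UMIs 11.6-fold in cluster 1 and 10.9-fold in cluster 2, so a single molecule can add several reads to a well. The part of this in the spread and in the wells with none was not tested, so neither shows how far cells differ. The median well of cluster 1 showed 5, 4 and 4 of the 10 genes, and that of cluster 2 showed 4, 4 and 3. At least 8 genes were seen in 36, 22 and 29 wells of cluster 1 and in 17, 4 and 8 wells of cluster 2.

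**Figure D5:**
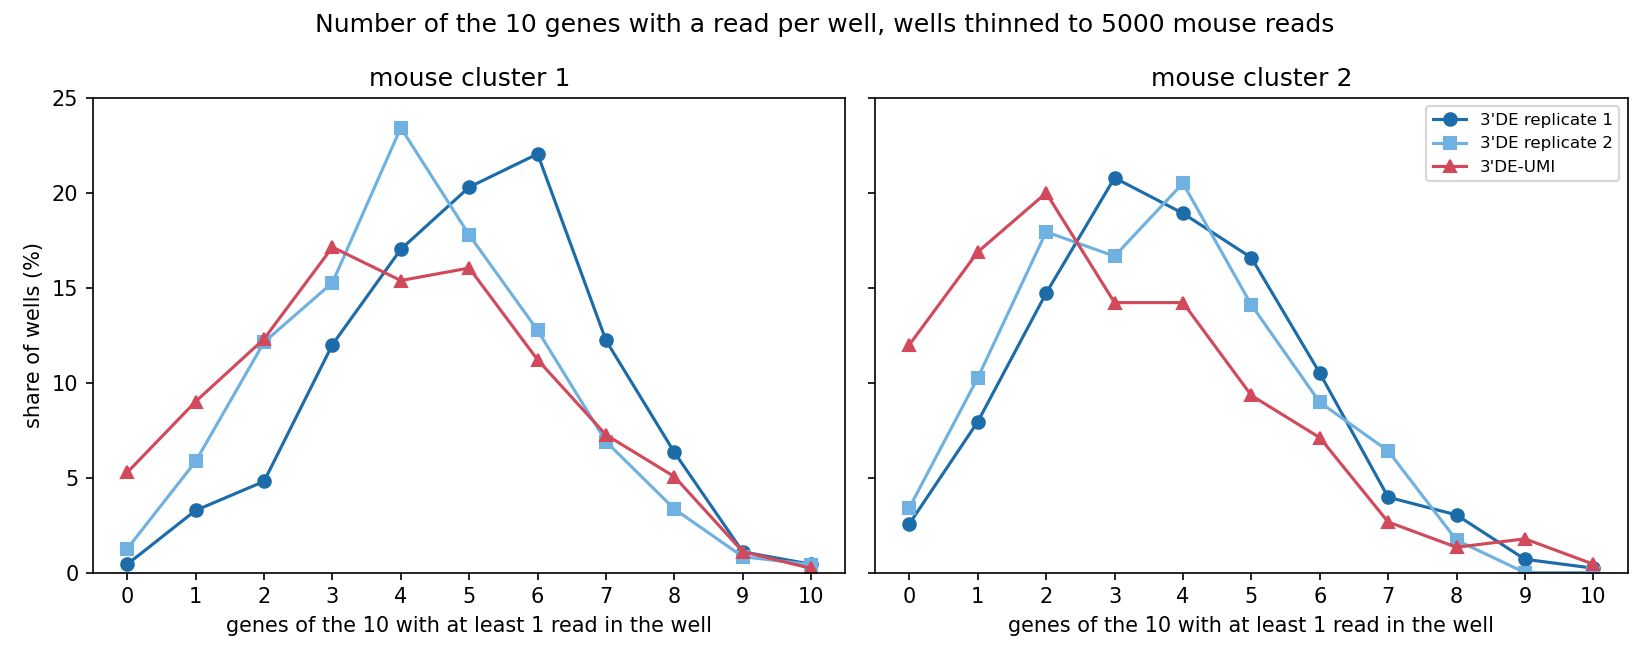
Share of wells (%) by the number of the 10 genes with at least 1 read, after thinning to 5000 mouse reads, in mouse cluster 1 (left) and mouse cluster 2 (right); lines are libraries. Wells with none of the genes are most frequent under 3'DE-UMI, at 5.27% in cluster 1 and 12% in cluster 2.

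Across wells the genes varied together only weakly. The median Pearson correlation over the 45 gene pairs, on log counts of wells thinned to 5000 reads, lay between 0.06 and 0.10 in the 6 combinations of library and cluster, and 37 to 41 of the 45 were positive. The mean of these medians was 0.07 in cluster 1 and 0.08 in cluster 2, and 0.08 and 0.10 with unshared barcodes only. The pairs with the highest mean were Mcm3 with Rrm2 and Pcna with Rrm2, both at 0.16. The summed helicase reads correlated with the summed reads of Pcna, Tyms, Rrm1 and Rrm2 at 0.14 to 0.31. These wells share a library and a depth, counts are sparse, and the values are a description. Of 1834 other genes with a read in at least 10% of wells throughout, ENSMUSG00000040204 was most like the summed set, with a mean correlation of 0.26 (0.16 to 0.36), followed by ENSMUSG00000023004 at 0.20. The median of the 1834 genes was 0.02.

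The 3'DE-UMI library allowed reads to be set against molecules. Its wells held a median of 2642 mouse UMIs in cluster 1 and 3217 in cluster 2, and the 10 genes together had a median of 8 and 5 UMIs per well. By UMIs, Pcna had 997 molecules in cluster 1 (640 CPM by UMIs) and 173 in cluster 2 (185 CPM), a ratio of 3.47. Rrm2 had 856 and 171 (550 and 183 CPM, ratio 3.01), and Mcm5 had 507 and 123 (326 and 131 CPM, ratio 2.48). The reads of these genes gave ratios of 3.72, 3.11 and 2.20, so that the order of the clusters was the same for molecules and reads. Rrm1 (1.84), Mcm7 (1.69), Mcm3 (1.47) and Mcm4 (1.28) were also higher by UMIs in cluster 1, whereas Mcm6 (1.01), Tyms (0.981) and Mcm2 (0.825) lay near or below 1.

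The number of reads per UMI differed between the genes. Reads and UMIs were counted with different software, and the part of this in the ratios was not tested. Over 3688 genes with at least 50 UMIs in cluster 1 the median was 13.8 reads per UMI. Rrm2 had 18.2 reads per UMI, more than 94.9% of these genes, and Mcm2 had 17.1, Mcm4 16.8 and Tyms 16.4. Mcm5 (11.9) and Pcna (12.2) had fewer than the median gene. In cluster 2 Mcm4 had 18.1 and Pcna 10.8 around a median of 12.9. Over all mouse genes together there were 11.6 reads per UMI in cluster 1, fewer than for either gene. The level of Rrm2 in cluster 1 was 864 CPM by reads and 550 CPM by UMIs, and that of Pcna was 676 and 640. In a well of cluster 1 with the gene, Rrm2 had on average 3.12 UMIs and Pcna 3.05, with up to 17 and 19 in a single well, and Mcm2 had 1.24.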

How the data were processed

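Read counts per gene and well had been deposited for each library. The authors made these counts with mappa and STAR 2.7.0b against hg19 and mm10 joined into a single reference, and UMI counts of the 3'DE-UMI library with Drop-seq tools and STAR 2.4.2a. UMI counts of the 3'DE kit are unreliable by its design, so reads were the main unit. The study also downsampled reads to a common depth, and whether the tables were made before or after that step is not given in the sources used here, so totals and depths are those of the tables. These totals were 35581264, 109702878 and 44883618 reads. Groups and replicates came from the titles.

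Mouse wells were clustered with scanpy 1.11.5 (10000 counts per well, log, 1000 variable genes scaled within library and limited to 10, 20 components, 15 neighbours, Leiden resolution 0.1), without the 10 genes. For tests, genes were divided into 2 sets, and the clusters used to test a set were made on the other. Wells with reads of both species were set aside, and doublets of the same species were not sought. Sums of reads over the wells of each cluster and library were fitted in edgeR 4.0.16 (R 4.3.3, filterByExpr, TMM, quasi-likelihood F-test, two-sided, Benjamini-Hochberg over all mouse genes tested, threshold 0.05), and in DESeq2 1.42.0 as an alternative. SE is the log2 difference divided by the root of F. The fits were also run on simulated counts, drawn with the spread estimated from these same sums and the same for every library. Such a simulation cannot check whether the single 3'DE-UMI library varies like the 3'DE libraries. Nothing in the labels says that the libraries came from separate cultures beyond the mixtures. With the library as a block, p-values between clusters measure how the cluster difference varied over these libraries. Between protocols, and for the interaction, they rest on the spread of the 3'DE libraries. Either spread may be technical. Shares of wells carry exact Clopper-Pearson 95% intervals.

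The genes, lists and tests were chosen with earlier results of these data known. The 10 genes were named by the rule that takes all of them, and the genes most like them by mean correlation. The lists of other replication genes, mitotic genes and cell type markers, and the genes' positions, were not used here, because no table given pairs mouse identifiers with symbols. Use of unshared barcodes, scaling by total reads and leaving libraries out of the shares and correlations were added after the data were seen.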

Additional observations from a re-analysis of the deposited data

Results flagged for a closer look

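Reads of the 10 genes were also present in data outside the comparisons. In wells with reads of both species there were 1228 reads of the 10 genes in 180 wells of 3'DE replicate 1, 3551 in 175 wells of 3'DE replicate 2 and 1527 in 36 wells of the 3'DE-UMI library, or 1836, 2169 and 4109 reads per 1000000 mouse reads (CPM). For the 3'DE-UMI library, 1543 barcodes had UMI counts but no read counts, with 169 UMIs of the 10 genes among 66985 mouse UMIs. Each value is above the 3 counts that a count of 0 allows.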

How the results depend on the processing

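Between the clusters, 4 of 10 genes passed, and 4 to 5 did when each library was left out in turn. Without the replicate block (the library) 2 did, while the other settings gave 3 to 6. Between the protocols in cluster 1 the 4 genes became 2 with UMI counts, and the other settings gave 3 to 6. In cluster 2 none passed except 1 with scaling by total reads alone. No paired analysis was possible because the protocol groups share fewer than 2 replicate numbers, and the link by cell mixture, between 3'DE replicate 2 and the 3'DE-UMI library, also gives a single pair. Leaving out a 3'DE library there left no residual degree of freedom, so that it gave values with no test. Under these leave-outs Pcna (−0.10), Rrm1 (0.0014) and Mcm2 (0.0016) of cluster 2 reached or passed 0. Leaving out the 3'DE-UMI library was not run for the protocols. The sign turned for Mcm2 with thinned wells between clusters (−0.048), with equal numbers of wells in cluster 1 (0.13) and with UMIs in cluster 2 (−0.31), and in the interaction for Mcm4 (−0.064 with total reads, −0.0012 thinned, −0.013 with equal wells, −0.31 with unshared barcodes), Tyms (−0.022, −0.054, −0.014 and −0.0032) and Mcm6 (0.10 thinned). None of these had passed, and the cause was not tested.

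The median share of wells per gene, averaged over libraries, was 42.6% ± 4.05 (SD, n = 3) in cluster 1 and 34.6% ± 4.55 in cluster 2. It was 25.8% and 21.5% at 2000 reads, 66.2% and 54.3% without thinning, and 25.5% and 18.6% at 2 reads or more, with 40.9% to 44.8% and 32.3% to 36.8% when a library was left out. The mean of the median correlations was 0.07 and 0.08, and was 0.06 to 0.07 and 0.07 to 0.09 with a library left out. It rose to 0.13 and 0.14 without thinning. With UMI counts for the 3'DE-UMI library, averaged with the unchanged 3'DE libraries, it was 0.16 and 0.16. Those UMI counts were neither thinned nor scaled by the depth of the well, and the part of depth in this rise was not tested. Over all genes, the 4692 calls between clusters were 2969 without the replicate block and 2901 without 3'DE replicate 2, the 1524 in cluster 1 were 925 with UMIs, the 281 in cluster 2 were 173 with equal wells, and the 287 of the interaction were 128 thinned, 49 in DESeq2, 40 with total reads and 7 with UMIs.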
